A study of Mus musculus with 5 samples.

Results

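The genes that encode the proteins of the cytosolic ribosome were examined for Gfi1 and Lsd1 binding at their start sites in MG medulloblastoma. Members were the protein-coding genes of the GENCODE M21 annotation whose symbol is Rpl or Rps followed by a digit, together with Rplp0, Rplp1, Rplp2 and Rpsa. The ribosomal S6 kinase genes, Rps19bp1, Rpl7l1 and pseudogenes were left out. This gave 84 of 21938 protein-coding genes, of which 51 encode large subunit proteins or their copies and 33 encode small subunit proteins or their copies. The rule uses symbols and annotation and no peak values, although earlier results of these data were known when the genes were chosen.

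MG tumors come from Prominin1+ lin- stem cells of C57BL/6 pup cerebella that carry retroviral Gfi1 and a stabilised point mutant of Myc (threonine to alanine) and were transplanted into NSG mice. Every library therefore shares both oncogenes and the graft setting, there is no arm without Gfi1, and cells of the host may remain in the resected tissue. Gfi1 was immunoprecipitated from tumors 39 and 41, and Lsd1 from the same 2 tumors, which gave 4 peak lists. The input control is a pool of Myc and Gfi1b (MGB) tumors and was not analysed here. The lists hold 36836 and 25078 Gfi1 peaks and 30367 and 33213 Lsd1 peaks in tumors 39 and 41, each with a position and a score, whose lowest value was 50.01 in both Gfi1 lists. They hold no numbers of reads. The depth behind a peak is therefore unknown, and a score was read only as its percentile within its own list.

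Ribosomal proteins assemble with ribosomal RNA into the subunits that carry out protein synthesis, and nearly every growing cell transcribes their genes at high rates. Many of these genes are short, start within a run of pyrimidines known as the TCT initiator, and host small nucleolar RNAs in their introns. Myc is a known activator of ribosome production, whereas Gfi1 is a zinc finger repressor whose SNAG domain recruits Lsd1, a demethylase of histone H3 lysine 4.

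Start site sequences are shown first, for 4 members that hold the core of the Gfi1 recognition motif, for the most highly scored and the widest member that could be shown, for a pair on chromosome X with low scores, and for a pair of copies with no peak. They come from RefSeq (GRCm38.p6, the build of mm10), which matched 64 of the 84 members, and each runs from 250 bases before to 20 bases into the transcript, on the strand of the gene. The windows lie at chr9:64173137-64173406 (+), chr4:152325476-152325745 (+), chr10:80292181-80292450 (+), chr7:118116128-118116397 (-), chr7:45128726-45128995 (-), chr7:45717821-45718090 (+), chrX:74270566-74270835 (+), chrX:102189372-102189641 (-), chr16:10169978-10170247 (+) and chr9:114982720-114982989 (-), in the order printed. The RefSeq start of Rpl18 lies 2614 bp from the main GENCODE start used for its peaks, and in the others the starts are at most 141 bp apart. Capitals mark AATCAC (the Gfi1 core), CACGTG (the E-box bound by Myc), CCGGAA (the core bound by ETS factors) and AAGATGGC (the YY1 core), on either strand, and CTTTC or CTTTT on the strand of the gene when its first base lies within 15 bases of the start. The initiator and the ETS core can share bases, as they do in Rpl39l and Rps27rt.
Rpl4: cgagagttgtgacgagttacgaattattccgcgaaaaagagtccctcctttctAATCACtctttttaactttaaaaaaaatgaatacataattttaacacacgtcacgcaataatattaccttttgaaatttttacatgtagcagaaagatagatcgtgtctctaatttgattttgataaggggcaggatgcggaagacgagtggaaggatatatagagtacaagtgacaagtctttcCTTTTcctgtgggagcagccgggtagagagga
Rpl22: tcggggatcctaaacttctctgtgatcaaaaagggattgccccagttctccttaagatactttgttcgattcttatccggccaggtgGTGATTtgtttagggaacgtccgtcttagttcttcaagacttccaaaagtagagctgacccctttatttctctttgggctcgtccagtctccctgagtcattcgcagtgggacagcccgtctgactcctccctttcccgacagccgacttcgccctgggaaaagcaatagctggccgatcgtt
Rps15: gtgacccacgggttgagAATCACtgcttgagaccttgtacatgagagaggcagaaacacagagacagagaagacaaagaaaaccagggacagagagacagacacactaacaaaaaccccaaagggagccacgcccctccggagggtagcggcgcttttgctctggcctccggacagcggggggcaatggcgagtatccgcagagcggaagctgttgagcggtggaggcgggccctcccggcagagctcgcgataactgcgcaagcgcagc
Rps15a: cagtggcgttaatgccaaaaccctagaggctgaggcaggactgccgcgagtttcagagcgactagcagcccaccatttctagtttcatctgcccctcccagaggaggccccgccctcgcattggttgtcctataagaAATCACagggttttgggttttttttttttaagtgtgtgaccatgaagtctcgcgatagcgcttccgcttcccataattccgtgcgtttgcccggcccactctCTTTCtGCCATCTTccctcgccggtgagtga
Rpl13a: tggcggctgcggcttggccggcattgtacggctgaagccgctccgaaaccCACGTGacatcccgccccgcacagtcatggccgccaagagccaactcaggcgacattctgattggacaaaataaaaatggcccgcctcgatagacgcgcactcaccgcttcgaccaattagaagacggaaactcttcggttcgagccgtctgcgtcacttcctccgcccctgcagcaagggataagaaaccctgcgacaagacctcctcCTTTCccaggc
Rpl18: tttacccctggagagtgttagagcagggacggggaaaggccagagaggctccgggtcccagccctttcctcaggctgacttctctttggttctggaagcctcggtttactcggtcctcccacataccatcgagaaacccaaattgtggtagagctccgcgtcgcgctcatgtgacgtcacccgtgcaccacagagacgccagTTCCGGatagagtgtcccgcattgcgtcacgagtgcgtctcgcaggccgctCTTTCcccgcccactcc
Rpl10: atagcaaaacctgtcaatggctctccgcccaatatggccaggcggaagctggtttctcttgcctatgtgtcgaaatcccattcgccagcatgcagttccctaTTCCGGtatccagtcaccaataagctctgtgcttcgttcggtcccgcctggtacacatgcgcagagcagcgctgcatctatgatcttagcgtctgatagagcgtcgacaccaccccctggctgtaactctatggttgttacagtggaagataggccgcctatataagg
Rps4x: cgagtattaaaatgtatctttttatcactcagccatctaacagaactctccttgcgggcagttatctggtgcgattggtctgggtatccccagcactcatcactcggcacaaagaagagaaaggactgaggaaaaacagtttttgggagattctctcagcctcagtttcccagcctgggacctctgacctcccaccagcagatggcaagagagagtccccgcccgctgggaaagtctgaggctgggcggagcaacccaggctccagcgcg
Rpl39l: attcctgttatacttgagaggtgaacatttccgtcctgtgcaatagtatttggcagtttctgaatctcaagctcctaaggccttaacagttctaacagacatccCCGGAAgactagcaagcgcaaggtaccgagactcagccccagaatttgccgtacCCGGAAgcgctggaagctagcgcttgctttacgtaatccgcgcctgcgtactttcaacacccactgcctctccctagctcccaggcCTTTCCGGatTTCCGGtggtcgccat
Rps27rt: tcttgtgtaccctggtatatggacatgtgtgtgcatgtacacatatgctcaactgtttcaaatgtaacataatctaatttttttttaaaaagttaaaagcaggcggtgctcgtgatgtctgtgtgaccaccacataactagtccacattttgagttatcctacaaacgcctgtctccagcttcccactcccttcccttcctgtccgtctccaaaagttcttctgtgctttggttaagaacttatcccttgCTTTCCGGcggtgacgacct

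The Gfi1 core was rare in these windows. Over the full 300 bases, from 250 before to 50 after the start, it stood in 4 of 64 members (6.25%), namely Rpl4, Rpl22, Rps15 and Rps15a, against 11.2% of 16522 protein-coding genes. The E-box was held by 6 members (9.38%), close to the 9.18% of all genes. The ETS core was held by 35 members (54.7%) against 21.5%, the YY1 core by 5 (7.81%) against 3.64%, and the initiator by 22 (34.4%) against 8.38%. A match of letters describes the sequence and does not mark a bound site, and a window without a match says nothing of the factor. Of the 4 members with the Gfi1 core, Rps15 and Rps15a had high-confidence peaks of both factors, Rpl4 had one of Gfi1 alone, and Rpl22 had none. The reading of sequence was a description of 64 members only.

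Peaks of both factors lay at nearly every gene of the ribosome. A peak within 1000 bp of a transcription start site (TSS) was present in all 4 lists for 80 of the 84 members (95.2%), against 53.1% of all protein-coding genes. Counted by list, 81 members had a Gfi1 peak in tumor 39 and 80 in tumor 41, against backgrounds of 65% and 54.3%. An Lsd1 peak was present at 81 members in each tumor, against 58.5% in tumor 39 and 61.7% in tumor 41. Only 3 members (3.57%) had no peak in any list, against 33.6% of protein-coding genes. Most members (73 of 84) have CpG-rich start sites, and genes with such sites were nearer to them. Of 10090 CpG-rich protein-coding genes 86.0% had a peak in all 4 lists and 1.98% had none. By list, 97.8% and 86.6% of these had a Gfi1 peak in tumors 39 and 41, and 90.7% and 94.5% an Lsd1 peak. The members' shares were 96.4% and 95.2% for Gfi1 and 96.4% in both tumors for Lsd1, lower only for Gfi1 in tumor 39. For 80 members a TSS was also the closest of all annotated TSSs to a peak in every list. All TSSs inside a peak tie as closest in this count, so it adds little to the presence of a peak. Another gene's TSS lay within 1000 bp of a TSS of 47 members.

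The exceptions were all copies, that is, genes outside the standard set that resemble one of its members. Rpl10l, Rpl39l and Rps27rt had no peak, and Rpl3l lacked only a Gfi1 peak in tumor 41. Rpl10l and Rpl39l are copies known from the male germ line, and Rpl3l is the copy of striated muscle. The peaks at Rpl3l began 4738 to 5318 bp after its main start site, near an internal one, and in tumor 39 the highest stood at percentile 45.7 for Gfi1 and 91.9 for Lsd1, while that of Lsd1 in tumor 41 stood at 35.9. The other copies, Rpl22l1, Rpl36al and Rps27l, had peaks in every list, as did all 77 members that are not copies. Among the 294 annotated ribosomal protein pseudogenes, most of which are reverse-transcribed insertions without the parent's promoter, 8 (2.72%) had a peak in all 4 lists and 264 had none.

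The peaks stood high in their lists. The highest-scoring peak of a member had a median percentile of 91.4 for Gfi1 in tumor 39 and 92.6 in tumor 41, which averages to 92.0 ± 0.864 (SD, n = 2 tumors). For Lsd1 the medians were 89.1 and 88.2, with a mean of 88.7 ± 0.688 (SD, n = 2 tumors). Over all protein-coding genes with a peak Gfi1 had medians of 82.5 and 77.4 and Lsd1 had medians of 79.0 and 81.0. The members thus lay above the median of all genes in each list, by more than the spread between the tumors. In the middle of the members the range was narrow, with quartiles of 86.8 and 94.8 for Gfi1 in tumor 39.

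**Figure D1:**
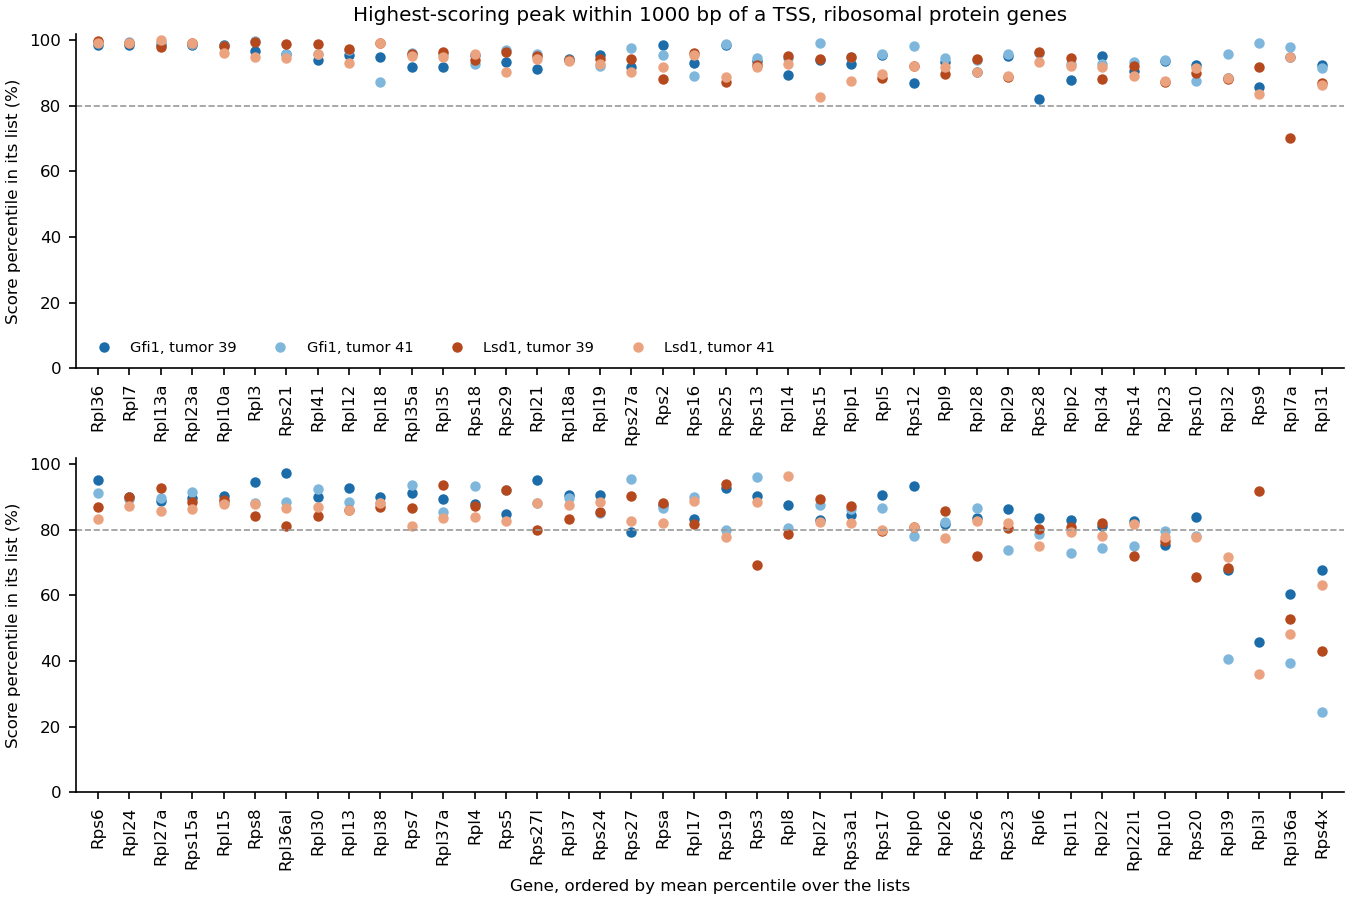
Score percentile of the highest-scoring peak within 1000 bp of a TSS (vertical axis, percent of the peaks of the same list) for 80 of the 81 members with a peak, ordered by their mean, with 1 point for each list. The dashed line marks the 80th percentile. Most points lie above it, and the X-linked Rps4x, Rpl36a and Rpl39 and the copy Rpl3l stand at the lower end.

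A peak was called high confidence when the tumor 39 peak was in the upper 20% of the score and at least 50% of its length lay in upper 20% peaks of tumor 41. By this rule 66 members (78.6%) had a high-confidence Gfi1 peak, against 22.9% of protein-coding genes, and 60 (71.4%) had a high-confidence Lsd1 peak, against 25.9%. Both were present at 56 members, where the share of all genes was 19.5%. An upper 20% peak in each of the 4 lists was found at 60 members, against 19.9% of genes. Most members have CpG-rich start sites (73 of 84), where 42.3% of protein-coding genes had a high-confidence Gfi1 peak and 46.8% had one of Lsd1. The members' shares were above these too.

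Other genes of protein synthesis also had peaks at most start sites, but high-confidence peaks at a smaller share. All 78 mitochondrial ribosomal protein genes had a peak in every list, and 32 (41%) had a high-confidence Gfi1 peak, with the same number for Lsd1. Of the 68 initiation and elongation factor genes 61 (89.7%) had a peak in every list, and 36 (52.9%) had a high-confidence peak of each factor. The 30 ribosome biogenesis genes, such as Ncl, Npm1 and Fbl, which make and process ribosomal RNA, all had a peak in every list, and 17 (56.7%) had a high-confidence peak of each factor. The median peak width of the biogenesis genes was 2335 and 2584 bp for Gfi1 in tumors 39 and 41, less than that of the cytosolic ribosomal protein genes given further on.

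**Figure D2:**
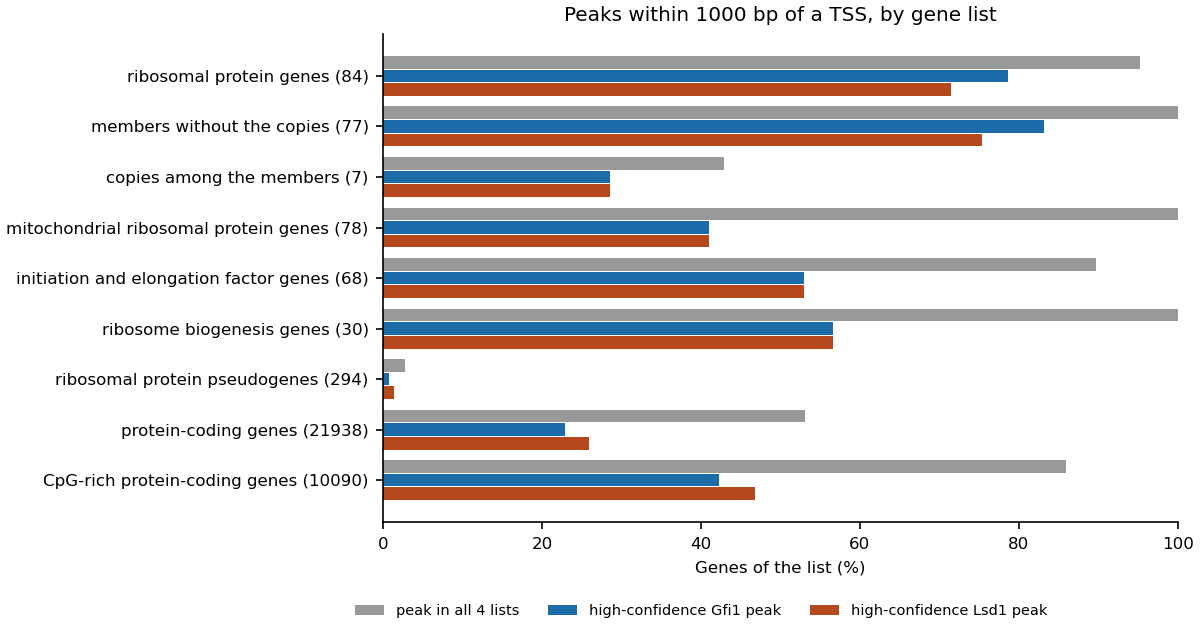
Share of genes (horizontal axis, percent) with a peak within 1000 bp of a TSS in all 4 lists (grey), with a high-confidence Gfi1 peak (blue) and with a high-confidence Lsd1 peak (red), for 9 gene lists with their sizes in parentheses. The members reach 78.6% for Gfi1 and 71.4% for Lsd1, and the mitochondrial ribosomal protein genes 41% for each.

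Within the large subunit the highest scores belonged to Rpl36, Rpl7, Rpl13a and Rpl23a. None of these peaks was of the named gene alone, since each also held the start of another protein-coding gene in every list. Among these were 2410015M20Rik at Rpl36, Rdh10 at Rpl7, and Nek8 and Tlcd1 at Rpl23a. Rpl36 (chr17:56613416-56614243) encodes a small basic protein of the large subunit. Its Gfi1 peak stood at percentile 98.6 in tumor 39 and 99.5 in tumor 41, and its Lsd1 peak at 99.7 and 99.2. Rpl7 (chr1:16101295-16104662), whose protein binds ribosomal RNA, had Gfi1 percentiles of 98.6 and 99.4 and Lsd1 percentiles of 99.2 in both tumors. The order of these genes is not resolved in the Gfi1 list of tumor 39, where 805 peaks share 1 high score and 8 members are among them. In the Lsd1 list of tumor 41, 419 peaks share 1 high score, with Rpl36, Rpl7, Rpl23a and Rpl18 among them. Rpl36 was also among 113 tied peaks in the Lsd1 list of tumor 39.

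Rpl13a (chr7:45125558-45128761) encodes a large subunit protein known for a second role in silencing inflammatory mRNAs. Its peak was 9675 bp wide for Gfi1 in tumor 39 and 9602 bp in tumor 41, and 11768 and 9575 bp for Lsd1, and covered the gene whole in each list. Its percentiles were 98.6, 99.4, 98.1 and 99.97 in the same order. Rpl23a (chr11:78180932-78183584), which encodes a protein next to the exit of the nascent chain, stood between 98.6 and 99.2 in the 4 lists. Its highest peak began 1876 bp after the main start site for Gfi1 in tumor 39, and 1837 bp after it for Lsd1 in tumor 41.

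Genes with known roles outside the ribosome were spread over the range. Rpl5 and Rpl11 encode the pair of proteins that bind 5S RNA and Mdm2 and so stabilise p53 when ribosome assembly fails. Rpl5 had Gfi1 percentiles of 95.6 and 95.9 and Lsd1 percentiles of 88.6 and 89.6, with high-confidence peaks of both factors. Rpl11 stood lower, at 83.0 and 73.1 for Gfi1 and 80.8 and 79.5 for Lsd1, and had no high-confidence peak. Rpl23, another protein that binds Mdm2, had percentiles of 93.7 and 93.9 for Gfi1 and 87.4 and 87.6 for Lsd1, and high-confidence peaks of both. Rpl22, which is mutated in some leukemias, stood at 81.3 and 74.4 for Gfi1 and 82.0 and 78.0 for Lsd1. The tumor 41 values of Rpl11 and Rpl22 were below the upper 20% for both factors.

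In the small subunit, Rps6, the substrate of the S6 kinases, stood at 95.3 and 91.4 for Gfi1 and at 87.1 and 83.4 for Lsd1. Rps14, lost in the 5q- syndrome, had Gfi1 percentiles of 90.6 and 93.3 and Lsd1 percentiles of 92.3 and 89.0. Rps7 had 91.4 and 93.7 for Gfi1 and 86.7 and 81.3 for Lsd1. All of these had high-confidence peaks of both factors. Rps19, the gene most often mutated in Diamond-Blackfan anemia, had none of either, because its percentiles of 92.6 for Gfi1 and 93.9 for Lsd1 in tumor 39 were 79.9 and 77.9 in tumor 41. Rpsa, the laminin receptor protein, had Gfi1 percentiles of 87.6 and 86.6 and Lsd1 percentiles of 88.2 and 82.2, and Rps27a, which is made as a fusion to ubiquitin, had 91.9 and 97.6 for Gfi1 and 94.2 and 90.3 for Lsd1. Both had high-confidence peaks of both factors.

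The stalk of the large subunit, which recruits the translation factors, is built from Rplp0, Rplp1 and Rplp2. Rplp0 stood at percentiles 93.2 and 78.1 for Gfi1 and 80.9 in both tumors for Lsd1, and had a high-confidence peak of Lsd1 alone. Rplp2 had 87.9 and 92.8 for Gfi1 and 94.7 and 92.3 for Lsd1, with high-confidence peaks of both. Rplp1 (chr9:61913284-61914542) was above percentile 87 in all 4 lists but had no high-confidence peak. Its Gfi1 peak was 6224 bp wide in tumor 39 and 3059 bp in tumor 41, so that less than 50% of the first was covered by the second, and its Lsd1 peaks were 5723 and 2845 bp. The rule of overlap, not the score, set this gene apart.

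Peaks at these genes were wide and reached further into the gene than away from it. The median width was 3175 and 3589 bp for Gfi1 in tumors 39 and 41 (mean 3382 ± 293 bp, SD, n = 2 tumors) and 4265 and 3832 bp for Lsd1 (4049 ± 306 bp). Over all protein-coding genes with a peak it was 2086 and 2185 bp for Gfi1 and 2516 and 2380 bp for Lsd1. Before the main start site the members' peaks reached a median of 1095 and 1145 bp for Gfi1 and 1241 and 1106 bp for Lsd1. After it they reached 2034 and 2165 bp for Gfi1 and 2895 and 2394 bp for Lsd1, where all genes had 1170 and 1219 bp and 1359 and 1308 bp. The excess over all genes was therefore larger on the transcribed side in each list. Width and score were not independent traits. Spearman's rho between them was 0.69 to 0.76 by list over protein-coding genes with a peak, and 0.45 to 0.57 over the members.

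**Figure D3:**
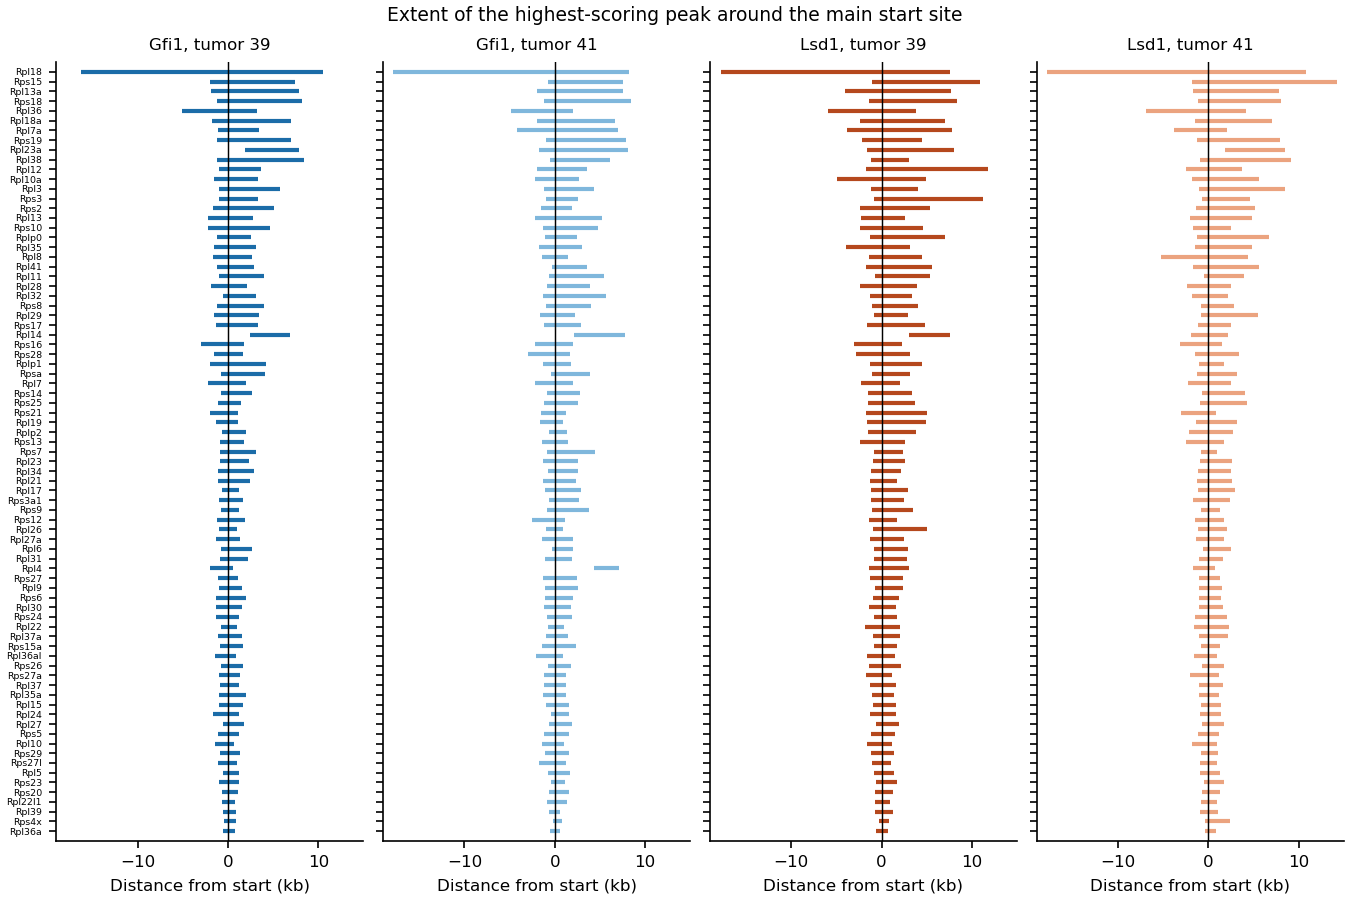
Extent of the highest-scoring peak (horizontal lines) around the main start site of the gene (0, in kb, positive into the gene) in each of the 4 lists, for 79 of the 80 members with a peak in every list, ordered by mean width. Lines are longer to the right of the start in most genes, and those of Rpl18 span over 25 kb. Lines that begin after 0, at Rpl14, Rpl23a and Rpl4, are peaks 1837 to 4335 bp after the main start site, within 1000 bp of another TSS of the gene.

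The members were also set beside genes with high scores and of short length. Among genes with an upper 20% peak in all 4 lists, the 60 members had median widths of 3392 and 3793 bp for Gfi1 and 4495 and 4039 bp for Lsd1, and the 4368 protein-coding genes had 2753 and 2966 bp and 3361 and 3181 bp. Restricted further to genes of at most 6000 bp, the 54 members had 3424 and 3793 bp for Gfi1 and 4495 and 4039 bp for Lsd1, and the 739 protein-coding genes 3613 and 3646 bp and 4514 and 4408 bp. Beside these short genes the members' peaks were narrower in 3 lists and wider in the Gfi1 list of tumor 41. The sets were not matched in score, since the members had median Gfi1 percentiles of 92.8 and 93.99, against 94.8 and 93.8 for the short genes. For Lsd1 the members had 92.7 and 90.3 and the short genes 94.8 and 94.5. The share of the peak on each side of the start differed. They reached 1231 and 1220 bp before the start for Gfi1, where the short genes had 1441 and 1490 bp, and 2065 and 2455 bp after it, where the short genes had 1886 and 1891 bp. For Lsd1 the members had 1354 and 1362 bp before and 2996 and 2514 bp after the start, and the short genes 1789 and 1778 bp before and 2344 and 2205 bp after.

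The members are compact genes, with a median length of 3266 bp against 17425 bp for all protein-coding genes, and peaks at their start sites covered most of the gene. The median share of the gene covered was 68.3% and 72.5% for Gfi1 and 84.4% and 71.2% for Lsd1, where all genes had 6.06% and 5.98% and 6.96% and 6.54%. Short genes were nearer to the members, and the part of gene length in the contrast was not tested. Protein-coding genes of at most 6000 bp with a peak had 54.6% and 50.2% for Gfi1 and 59.4% and 61.1% for Lsd1, and members of that length 74.4% and 75.4% and 90.4% and 79.6%. With upper 20% peaks in all 4 lists, short genes reached 77.3% and 70.1% for Gfi1 and 84.7% and 86.6% for Lsd1, and short members 78.4% and 80.8% and 90.5% and 83.3%. In all 4 lists 12 members lay wholly inside peaks, Rpl36, Rpl13a, Rpl18 and Rps15 among them. Among members of at most 6000 bp the share wholly inside peaks in every list was 16.7% of 72, against 15.1% of 1708 protein-coding genes of that length. Counted by list, it was 25% and 33.3% of these members for Gfi1 and 38.9% and 29.2% for Lsd1, against 20.3% and 19.5% and 25.8% and 24.6% of the short genes.

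The widest peak lay at Rpl18 (chr7:45715457-45720836), which encodes a large subunit protein. It was 26901 and 26188 bp wide for Gfi1 in tumors 39 and 41, the widest but 1 and the widest of their lists, and 25328 and 28718 bp for Lsd1. In each list it also held the start sites of Car11, Dbp, Fam83e and Sphk2, so that it was not a peak of Rpl18 alone. Gfi1 stood there at percentiles 94.8 and 87.2, and Lsd1 at 99.1 and 99.2. Rps15 (chr10:80292453-80294114), which encodes a small subunit protein, had peaks of 9435 and 8226 bp for Gfi1 and 11925 and 16133 bp for Lsd1, which also held the start of Apc2. Wide peaks in these lists often join several genes, and 19 members share a start region of 1000 bp with another protein-coding gene. Of these, 18 had a high-confidence Gfi1 peak and 17 one of Lsd1, against 48 and 43 of the other 65 members. The other 65 include the 4 X-linked members and the 3 members with no peak. Over all protein-coding genes the shares were 22.9% and 25.9%, and those that share a start region were not counted apart.

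The 30 members that host a small nucleolar RNA had scores close to those of the others. Their median Gfi1 percentiles were 90.9 and 93.6, and the other 54 members had 91.4 and 91.9. For Lsd1 the hosts had medians of 88.1 and 88.7, and the others 90.1 and 87.9. The subunits were close as well. Large subunit members had a mean of the 2 tumor medians of 92.0 ± 0.864 for Gfi1 and 88.8 ± 0.536 for Lsd1, and small subunit members 91.8 ± 1.07 and 88.6 ± 0.941 (SD, n = 2 tumors).

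The lowest scores of the standard set belonged to genes of chromosome X. All 4 X-linked members, Rpl10, Rpl36a, Rpl39 and Rps4x, were among the 5 with the lowest mean percentile of the 80 members with a peak in every list, and none had a high-confidence peak. This grouping was made after the values were seen. Such peaks were rare on the chromosome, where 1.05% of 948 protein-coding genes had a high-confidence Gfi1 peak and 0.84% one of Lsd1. Rps4x (chrX:102184941-102189394), a small subunit protein gene, stood at 67.8 and 24.6 for Gfi1 and at 43.0 and 63.1 for Lsd1. Rpl36a (chrX:134585654-134588062) stood at 60.5 and 39.4 for Gfi1 and at 52.9 and 48.3 for Lsd1, and Rpl39 (chrX:37082520-37085402), which lines the exit tunnel, at 67.7 and 40.6 and at 68.3 and 71.7. In each of these 3 genes the Gfi1 value of tumor 41 was the lowest of the 4.

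Rpl10 (chrX:74270812-74273135), whose protein completes the large subunit and is mutated in some leukemias, was the highest of the 4, with Gfi1 percentiles of 75.5 and 79.5 and Lsd1 percentiles of 76.6 and 77.8. In the Gfi1 list of tumor 39 all 73 autosomal members other than copies were above it, and 6, 4 and 2 of them lay below it in the Gfi1 list of tumor 41 and the Lsd1 lists of tumors 39 and 41. The 5th of the low members, Rps20 on chromosome 4, had Gfi1 percentiles of 84.0 and 78.3 and Lsd1 percentiles of 65.7 and 77.9. Low scores were common to chromosome X. Over all X-linked protein-coding genes with a peak the median percentile was 66.6 and 49.4 for Gfi1 and 55.5 and 60.8 for Lsd1, against 83.0 and 78.0 and 79.6 and 81.5 for autosomal ones. The X-linked members had medians of 67.7 and 39.97 for Gfi1 and 60.6 and 67.4 for Lsd1. Of all 948 X-linked genes 25.8% had a peak in all 4 lists, and 4 of the 4 members did. The number of X chromosomes in the tumor cells was not measured here, and its part in these scores was not tested.

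**Figure D4:**
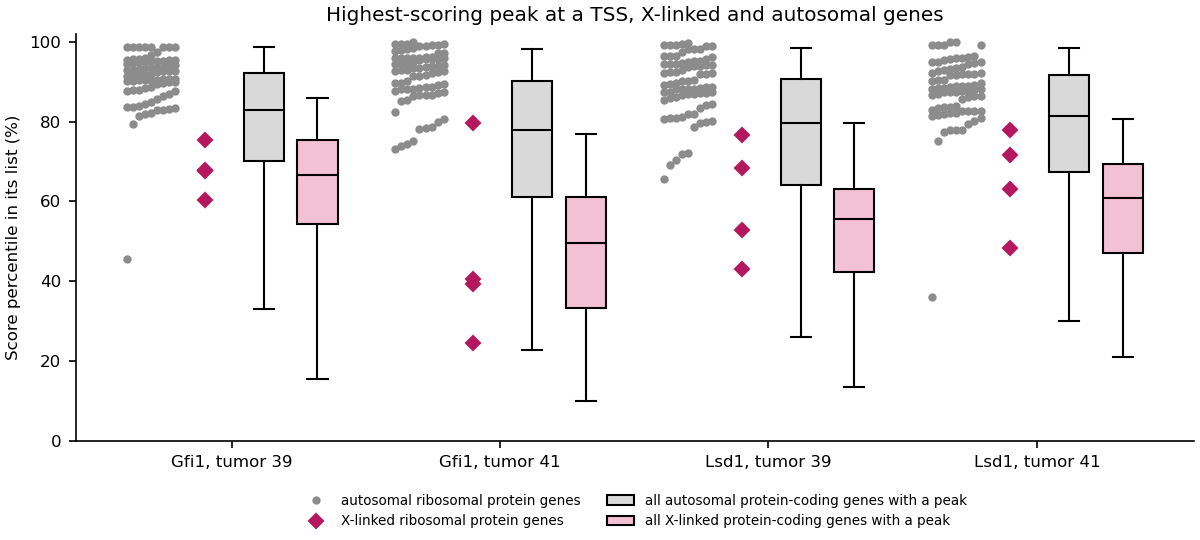
Score percentile of the highest-scoring peak at a TSS (vertical axis, percent) in each list for autosomal members (grey points), the 4 X-linked members (pink diamonds), and all autosomal (grey boxes) and X-linked (pink boxes) protein-coding genes with a peak. Boxes give the quartiles and median and whiskers the 5th and 95th percentiles. X-linked members lie in the range of other X-linked genes and below most autosomal members.

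The balance of Gfi1 and Lsd1 was compared within each tumor as the Gfi1 percentile minus the Lsd1 percentile of a gene. In tumor 39, Gfi1 stood higher at 44 of 81 members (54.3%), with a median difference of 0.56 percentile points, where it stood higher at 72.1% of protein-coding genes with a median of 5.40 points. In tumor 41 it stood higher at 61 of 80 members (76.3%), with a median of 2.13 points, where it stood higher at only 29.3% of genes with a median of -4.87 points. The members were below the background in tumor 39 and above it in tumor 41. Sequencing depth differed too, with more mapped reads for Lsd1 in tumor 39 and for Gfi1 in tumor 41, and its part was not tested. A percentile depends on the length of its list, and the Gfi1 list is the longer in tumor 39 and the shorter in tumor 41. With percentiles taken among the 25078 highest peaks of each list, a setting chosen after seeing the data, Gfi1 stood higher at 35 of 81 members in tumor 39 (43.2%, median -1.04 points) and at 60.7% of genes (2.92 points). In tumor 41 it then stood higher at 69 of 80 members (86.3%, 6.22 points) and at 47.95% of genes (-0.45 points). The members' median in tumor 39 thus changed sign with the setting, while their side of the background did not. Since highly scored genes have less room to differ, genes with an upper 20% peak in all 4 lists were also compared. There Gfi1 stood higher in tumor 39 at 30 of 60 members (50%, median 0.17 points) and at 58.5% of 4368 protein-coding genes (1.00 point). In tumor 41 it stood higher at 50 of 60 members (83.3%, 2.54 points) and at 42.5% of genes (-0.75 points). The distance of the members from other genes was larger in tumor 41 on this count too. Over both tumors Gfi1 was the higher at 31 of 80 members (38.8%, against 20.1% of protein-coding genes with all 4 peaks), Lsd1 was the higher at 6 (7.50%, against 19.8%), and the sign differed at 43 (53.8%, against 60.04%). Among the 25078 highest peaks of each list, Gfi1 was the higher in both tumors at 27 of 80 members (33.8%, against 28.3% of genes). Lsd1 was then the higher at 3 (3.75%, against 20.6%), and the sign differed at 50 (62.5%, against 51.1%). The members' share with Gfi1 the higher was thus nearer to that of all genes in this setting. With 2 libraries against 2, an exact two-sided permutation test cannot give a p-value below 0.333, and none was run.

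**Figure D5:**
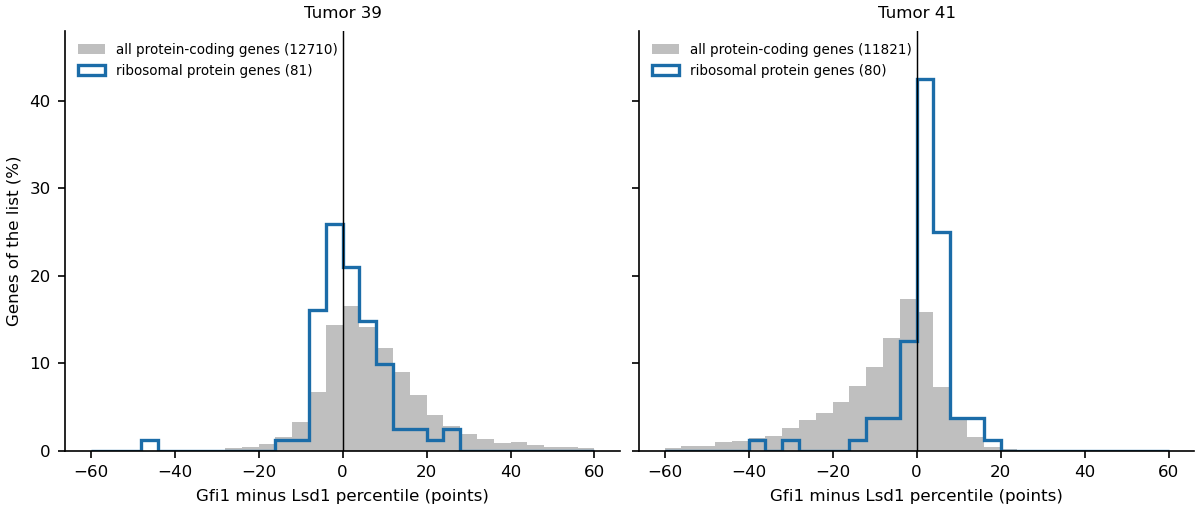
Distribution of the Gfi1 minus Lsd1 score percentile of a gene (horizontal axis, percentile points, differences beyond 60 points are not drawn) in tumors 39 and 41 for the members (blue line) and for all protein-coding genes with a peak of both factors (grey), as percent of the genes of each list. The members' median is 0.56 points in tumor 39 and 2.13 in tumor 41, and that of all genes 5.40 and -4.87.

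Among members whose difference had the same sign in both tumors, the mean excess of Gfi1 was largest at Rps3, Rpl7a and Rps25. Rps3, whose protein also takes part in DNA repair, stood at 90.3 and 96.0 for Gfi1 and 69.2 and 88.4 for Lsd1. Rpl7a, a large subunit protein gene with several small nucleolar RNAs, had Gfi1 percentiles of 94.8 and 98.0 and Lsd1 percentiles of 70.3 and 94.99. In both genes most of the excess came from tumor 39, where the Lsd1 peak was 12134 bp wide at Rps3 and 11580 bp at Rpl7a, against 4276 and 4479 bp for Gfi1. Rps25 differed alike in both tumors, with 98.6 and 98.9 for Gfi1 and 87.4 and 88.8 for Lsd1.

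Among the 6 members with Lsd1 the higher in both tumors, the mean excess was largest at Rpl39, Rpl18 and Rps16. At Rpl39 it came from tumor 41 alone, where the difference was -31.1 points, against -0.61 in tumor 39. At Rpl18 the differences were -4.30 and -12.0 points. Rps16, a small subunit protein gene, had 92.9 and 89.2 for Gfi1 and 96.1 and 95.6 for Lsd1. Among the copies, Rpl36al stood at 97.4 and 88.6 for Gfi1 and 81.2 and 86.7 for Lsd1, Rps27l at 95.1 and 88.2 and at 79.9 and 88.2, and Rpl22l1 at 82.8 and 75.02 and at 72.0 and 81.7. Rpl36al had high-confidence peaks of both factors, Rps27l of Gfi1 alone, and Rpl22l1 of neither. Rpl3l met the rule for Lsd1 although its tumor 41 peak near a TSS was low, because its wide tumor 39 peak overlapped upper 20% peaks further away.

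The order of the members was only partly shared between lists. Across the members with a peak, Spearman's rho was 0.60 between the Gfi1 lists of the 2 tumors (n = 80 genes), 0.68 between the Lsd1 lists (n = 81), 0.49 between Gfi1 and Lsd1 in tumor 39 (n = 81) and 0.70 in tumor 41 (n = 80). Over all protein-coding genes with both peaks the same values were 0.78, 0.90, 0.80 and 0.79. Genes are not independent replicates, the members cover a narrow range of scores, and the lists of a tumor share their chromatin, so that these values are given as a description.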

How the data were processed

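Gfi1 and Lsd1 ChIP-seq peak lists of MG tumors 39 and 41 were used. The authors aligned reads to mm10 (BWA 0.6.2 in the submitters' processing notes), removed duplicates and called peaks in each library with MACS at default parameters against input. Deposited lists give each peak a score, whose definition is not given in the sources used here. It stood in for the enrichment ranked in the study. The high-confidence rule used here kept 4387 Gfi1 and 5181 Lsd1 peaks, fewer than the study reports for either factor. Its calls are therefore not those of the published peak set. How reads that map to several places were treated is not given either. Percentiles are mid-ranks within a list. TSSs came from GENCODE M21, start sequences from RefSeq (GRCm38.p6), and CpG content from 500 bp on either side of the main TSS, where CpG-rich means over 50% GC and an observed to expected CpG ratio over 0.6.

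Members and lists were chosen with earlier results of these data known. Genes named were those lacking a peak, the 5 highest and 5 lowest mean percentiles, the 3 largest mean differences each way between factors with the same sign in both tumors, the 3 widest, copies, and 16 with known roles. Rpl4, Rpl14, Rps15a and Rps27 were named outside the rule. Values of 1 member and of 1 short comparison list are not reported here. No test between groups was run. Peak assignment was checked on 300 simulated peaks, all found. Alternatives varied the TSS distance, TSSs, members, gene assignment, score cutoff, overlap, peak choice, score filter and libraries, and 1 added after seeing the data used lists of equal length. Python 3.11.15, numpy 2.4.6, pysam 0.24.0, samtools 1.23.1 and matplotlib 3.10.9 were used.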

Additional observations from a re-analysis of the deposited data

Results flagged for a closer look

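The Gfi1 minus Lsd1 difference in score percentile had opposite signs in tumors 39 and 41 at 43 of the 80 members with all 4 peaks (53.8%), against 60.04% of protein-coding genes with all 4 peaks. With lists of equal length the shares were 62.5% and 51.1%. With 1 library of each factor in a tumor, and unequal sequencing depth, the difference between the tumors was not tested. Among them Rps27, named after its values were seen, had a Gfi1 percentile of 79.3 and an Lsd1 percentile of 90.4 in tumor 39, and 95.6 and 82.6 in tumor 41. At Rplp0 the differences were 12.3 points in tumor 39 and -2.86 in tumor 41, and at Rps4x 24.8 and -38.5.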

How the results depend on the processing

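No paired analysis was possible because the results come from no test. The factors were set side by side within each tumor, and a test of those differences over 2 tumors was not run. Of 53 values recomputed under other settings with all libraries kept, 51 stayed within 1.5 times the count or within 1 SD of the tumors for a median. The exceptions were the high-confidence counts at the upper 10% of the score, which were 35 members for Gfi1 (41.7%, against 10.9% of protein-coding genes) and 26 for Lsd1 (31.0%, against 12.8%). At the upper 40% they were 76 and 78, against 39.7% and 44.7% of genes. Main counts of 80, 66 and 60 of 84 members had no room to rise past 1.5 times, so only a fall could have passed that limit. Without each library in turn, members with a peak in all remaining lists numbered 80 to 81. With 1 list of a factor left, an upper 20% peak of that list took the place of a high-confidence one, which gave 68 to 75 members for Gfi1 and 69 to 70 for Lsd1, and 66 and 60 with both lists kept. Without the copies, all 77 members had a peak in all 4 lists. With lists of equal length, Gfi1 stood above Lsd1 at 35 members in tumor 39 and 69 in tumor 41, in place of 44 and 61. With 2 tumors and no read counts for the peaks, a difference in score between single genes has no error beyond the spread of 2 values.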
